A study of Capra hircus with 9 samples.

Results

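The miR-200 family, with miR-141 and miR-429, is a group of small RNAs of epithelial cells, and its sequences were counted in goat submandibular gland at 3 ages. Members were all entries of the deposited table named miR-200, miR-141 or miR-429, whatever letter or ending follows the number, together with those named miR-8 or miR-236. The rule took 14 of 2189 entries, of which 5 carry the goat prefix (chi-miR-200a, chi-miR-200b, chi-miR-200c, chi-miR-141 and chi-miR-429). The other 9 carry no species prefix (miR-200-x, miR-200-y, miR-200-z, miR-141-x, miR-141-y, miR-429-y, miR-8-x, miR-8-y and miR-236-y). The submandibular gland is a large salivary gland below the jaw. Small RNA was sequenced from the glands of 9 healthy female Lubo goats, with 3 goats aged 1 month, 3 aged 12 months and 3 aged 24 months, each library being a different animal. No goat was treated or genetically altered, and all were housed and fed alike, so age is the only labelled difference. Libraries are named here by age and by the number in their label (1-month 1, 2 and 3; 12-month 3, 4 and 5; 24-month 2, 3 and 5), and a number shared between ages does not mark the same goat.

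A microRNA is cut from a hairpin transcript, and either strand of the stem, called the 5p or the 3p arm, can be loaded into an Argonaute protein. Bases 2 to 8 of the loaded strand, the seed, do most of the pairing with target messages. The miR-200 family is best known for repressing the transcription factors ZEB1 and ZEB2 and so helping to hold cells in an epithelial state. The ducts and secretory end pieces of salivary glands are epithelial. In the fruit fly the family has the single member miR-8, and in the nematode one of its members is miR-236.

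The sequences are shown because the family is divided by a single seed base and because several entries differ by so little that reads could pass from one to the other. They are printed 5′ to 3′ as the deposited table lists them, with T for U, and capitals mark bases 2 to 8.
chi-miR-200b: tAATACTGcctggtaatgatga
chi-miR-200c: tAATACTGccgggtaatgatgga
chi-miR-429: tAATACTGtctggtaatgccg
miR-200-y: tAATACTGcctggtaatgatgact
miR-429-y: tAATACTGtctggtaatgccgta
miR-236-y: tAATACTGccaggtaatgatgaca
chi-miR-200a: tAACACTGtctggtaacgatg
chi-miR-141: tAACACTGtctggtaaagatgg
miR-141-y: tAACACTGtctggtaaagatggct
miR-8-y: gAACACTGtcaggtaaagatg
miR-200-z: aATACTGCctggtaatgatgaca
miR-200-x: cATCTTACtgggcagcattgga
miR-8-x: cATCTTACagggcagcattgga
miR-141-x: cATCTTCCagcacagtgttgga

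The first 6 of these share the seed AATACTG, and the next 4 share the seed AACACTG. Positions below count from 1 at the 5′ end of the first-named entry. chi-miR-200a differed from chi-miR-200b by T4C in the seed and by C9T and T17C outside it. chi-miR-141 differed from chi-miR-200a by C17A over their shared length. chi-miR-200c differed from chi-miR-200b by T11G and A22G, and chi-miR-429 differed from it by C9T, A19C and T20C. miR-200-y, miR-141-y and miR-429-y begin with the whole of chi-miR-200b, chi-miR-141 and chi-miR-429 and are longer at the 3′ end. miR-8-y differed from chi-miR-141 by T1G and T11A. miR-236-y differed from miR-200-y by T11A and T24A. miR-200-z starts at the second base of miR-200-y, which shifts its seed by 1 base, and its last base differs by T24A. miR-200-x, miR-141-x and miR-8-x are 5p arms, and miR-8-x differed from miR-200-x by T9A. No member had the same whole sequence as another entry. A family seed was found in 1 entry outside the rule, miR-5985-x, which held 2 counts in all. In the RefSeq goat assembly ARS1.2, MIR141 and MIR200C are neighbours, and MIR429, MIR200A and MIR200B are neighbours at another place.

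Each library held between 8288492 and 13277448 counts. The library 1-month 2 stood apart from the other 8. Its leukocyte miRNAs (miR-142, miR-150, miR-155, miR-223, miR-146 and miR-342) made up 12.7% of counts, against 3.73% and 5.78% in the other 1-month libraries. The miR-181 entries, abundant in lymphocytes, made up 14.1% there, against 4.19% and 3.05%. Both lists stayed at or below 0.712% in each of the 6 libraries of 12 and 24 months. The gland miRNAs miR-148 and miR-375 took 8.53%, 1.38% and 6.48% of counts in 1-month 1, 2 and 3, 14.2 to 16.8% in the 12-month libraries and 16.9 to 17.9% in the 24-month ones.

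The family took a larger part of all counts at 12 and 24 months than at 1 month. Its 14 entries summed to 4.66%, 0.366% and 3.23% of counts in 1-month 1, 2 and 3. They summed to 9.29%, 10.6% and 9.17% in 12-month 3, 4 and 5. At 24 months they summed to 10.6%, 10.5% and 9.52% in libraries 2, 3 and 5. All 6 later libraries lay above all 3 libraries of 1 month, and 1-month 2 was far below the rest. The mean share was 9.67 ± 0.768% at 12 months and 2.75 ± 2.19% at 1 month (SD, n = 3 each), a difference of 6.92 percentage points. At 24 months it was 10.2 ± 0.611%, which is 7.47 points above 1 month. In an exact permutation test over all arrangements of the 9 libraries, the share differed among ages with p = 0.0107 (2-sided), and with adjusted p = 0.0625 over the 7 summed values tested this way. For each pair of ages the smallest p that 3 against 3 allows is 0.1, which both 12 and 24 months reached against 1 month, while 24 against 12 months gave an exact p of 0.3. Without 1-month 2 the differences from 1 month were 5.73 and 6.28 points, still with adjusted p = 0.0625 in the exact permutation test. Leaving out other single libraries moved that adjusted p between 0.05 and 0.15. It was highest without 12-month 3, 12-month 5 or 24-month 2.

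Wilson 95% intervals on these shares were narrow, 0.363 to 0.369% in 1-month 2 and 10.5 to 10.6% in 12-month 4, and cover counting error only. The leukocyte and miR-181 shares moved the other way between the same libraries, and their part in the result was not tested. Taken only among counts outside those 2 lists, the family share averaged 3.04% at 1 month, 9.79% at 12 months and 10.3% at 24 months. In bulk tissue, fewer cells of a type and less RNA per cell cannot be told apart.

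**Figure D1:**
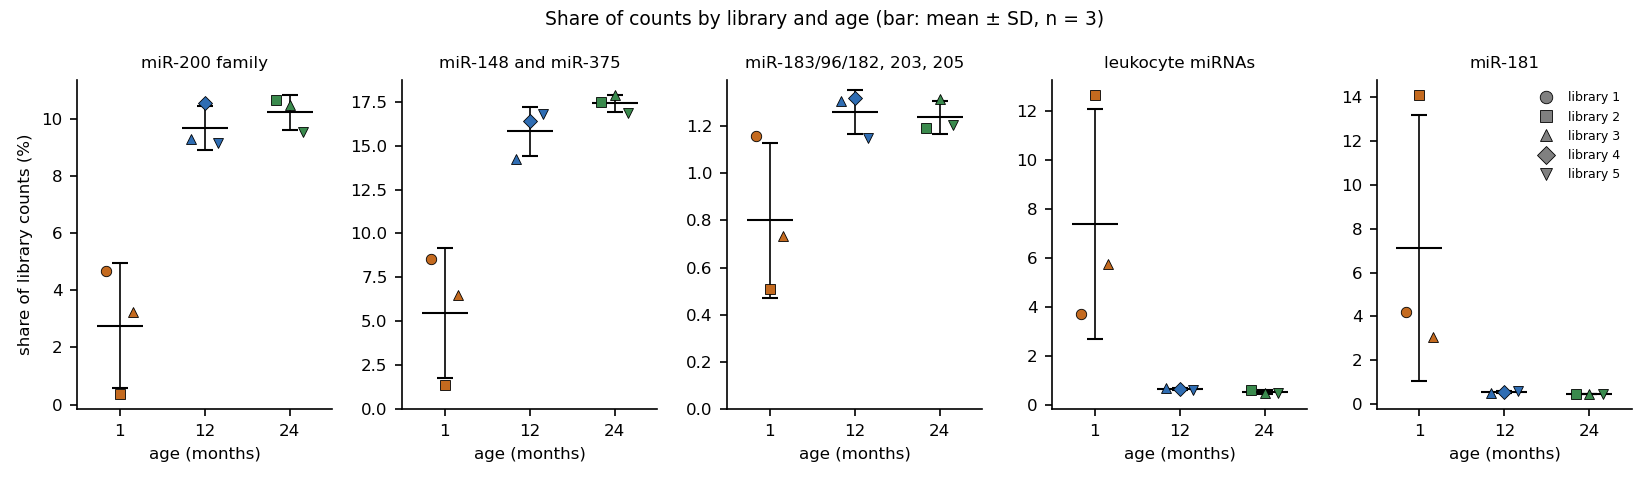
Percent of library counts (y axis, separate scale per panel) against age in months for the family and 4 other miRNA lists; each marker is a library, and the horizontal line and bar are the mean ± SD of 3 goats. The family and the miR-148 and miR-375 list are lowest in 1-month 2, at 0.366% and 1.38%, where the leukocyte and miR-181 lists are highest, at 12.7% and 14.1%.

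Levels of single entries are given as TMM-scaled CPM, counts relative to library size in which the sizes are adjusted so that most entries do not change. Each read stands for a whole small RNA, so no correction for length enters. Changes are log2 fold changes of edgeR's quasi-likelihood test with standard errors (SE), and adjusted p is Benjamini-Hochberg over the 937 entries that passed the filter on low counts. Of the 14 members, 13 passed that filter and miR-8-x did not. miR-236-y, with 12, 2 and 0 counts at 1 month, passed it through the later libraries. It is still counted below among the members higher at 24 months and among those without overlap. The comparisons of 12 and of 24 months with 1 month use the same 1-month libraries and are not independent.

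Among the members, 6 of 13 were higher at 12 months than at 1 month at an adjusted p under 0.05, where 5.98% of all 937 entries were (edgeR). None was lower, where 13.2% of all entries were. At 24 months 8 of 13 were higher than at 1 month, where 8.75% of all entries were, and again none was lower, where 17.5% were. The members are not independent units. Both counts include chi-miR-141, miR-141-y and miR-141-x, all named miR-141, and miR-8-y, which is near-identical to chi-miR-141. The median log2 fold change of the 13 members was 2.23 at 12 months and 2.43 at 24 months, beside -0.02 and -0.06 over all entries tested. With 1-month 2 left out, 14 members passed the filter, and the calls became 10 of 14 at 12 months and 11 of 14 at 24 months, where 8.69% and 11.5% of 967 entries were higher. The member added was miR-8-x, which had 0 and 2 counts in 1-month 1 and 3 and passed through the later libraries.

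In 12 of the 13 tested members every 12-month library lay above every 1-month library, as it did in 26.3% of all entries, and 12 of 13 also did so at 24 months, as did 21.3% of all entries. The exception in both was chi-miR-429. Leaving out single libraries moved the number of calls between 3 and 10 at 12 months, lowest without 12-month 4 or 12-month 5, and between 4 and 12 at 24 months, lowest without 24-month 3. Without 24-month 5 the count at 24 months was 5.

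**Figure D2:**
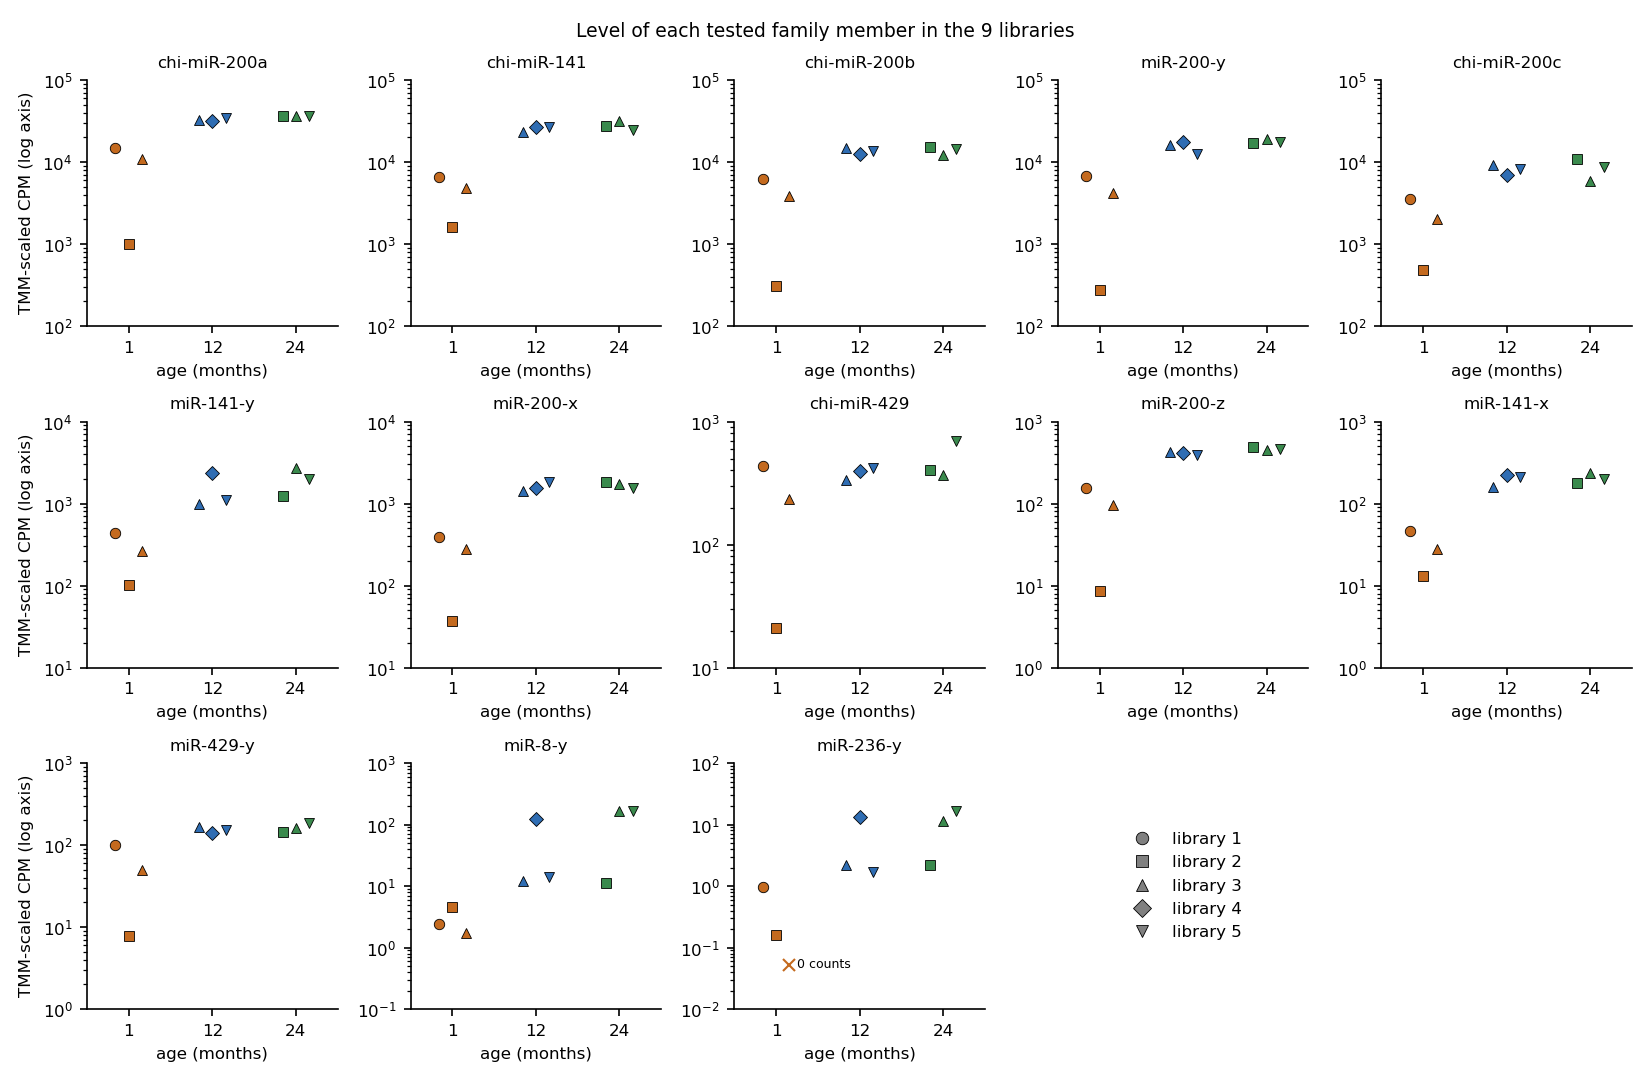
TMM-scaled CPM (log axis, separate range per panel) of the 13 tested members against age in months; each marker is a library, its shape gives the library number, and the cross marks a count of 0. In every panel except those of miR-8-y and miR-236-y the lowest point is 1-month 2, and chi-miR-429 is the panel in which 1-month 1, at 434 CPM, reaches the later libraries.

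The most abundant entries at 12 and 24 months, chi-miR-200a and chi-miR-141, have the seed AACACTG. The other entries with that seed, miR-141-y and miR-8-y, averaged 1473 and 49.2 CPM at 12 months. chi-miR-200a had 14882, 1004 and 10746 CPM in 1-month 1, 2 and 3. It had 32375, 31622 and 34422 CPM at 12 months, and 36134, 36532 and 36157 CPM at 24 months. The 3 ages did not overlap, and the 24-month libraries lay close together. Its log2 fold change was 1.89 (SE 0.69, adjusted p = 0.0695) at 12 months and 2.03 (SE 0.69, adjusted p = 0.0506) at 24 months, neither past the threshold in edgeR. Without 1-month 2 both values were smaller and past it, at 1.33 (adjusted p = 0.00123) and 1.48 (adjusted p = 0.000754).

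chi-miR-141, which shares this seed but lies beside miR-200c in the genome, had 6614, 1599 and 4772 CPM in the 1-month libraries. It had 23148, 26420 and 26659 CPM at 12 months and 27397, 31589 and 24873 CPM at 24 months. The later libraries overlapped each other and stood well above all 1-month libraries. chi-miR-141 rose by 2.55 (SE 0.47, adjusted p = 0.00497) at 12 months and by 2.69 (SE 0.47, adjusted p = 0.00367) at 24 months on the log2 scale in edgeR. Both calls held whichever single library was left out, with changes of 2.07 to 2.98 at 12 months and 2.28 to 3.12 at 24 months.

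miR-141-y, the form of miR-141 that is longer at its 3′ end, had 443, 100.5 and 260.5 CPM at 1 month, 991, 2334 and 1094 CPM at 12 months, and 1242, 2683 and 2015 CPM at 24 months. It rose by 2.46 (SE 0.58, adjusted p = 0.0149) at 12 months and by 2.89 (SE 0.59, adjusted p = 0.00772) at 24 months. The first of these calls was lost without 12-month 4 (adjusted p = 0.0635) and without 12-month 5 (adjusted p = 0.0516). The second held in all 9 fits that left out a library.

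Among entries with the seed AATACTG, chi-miR-200b had 6186, 312 and 3865 CPM in the 1-month libraries, 14807, 12474 and 13581 CPM at 12 months, and 15164, 12210 and 14599 CPM at 24 months. The longer miR-200-y was about as abundant, with 6694, 277 and 4192 CPM at 1 month, 16107, 17656 and 12430 CPM at 12 months, and 17169, 19085 and 17714 CPM at 24 months. Both were above 1 month in every later library, and in both 1-month 2 was more than an order of magnitude below its 1-month companions. The log2 fold changes of chi-miR-200b were 1.98 (SE 0.74, adjusted p = 0.0748) at 12 months and 2.02 (SE 0.74, adjusted p = 0.0606) at 24 months. Those of miR-200-y were 2.05 (SE 0.78, adjusted p = 0.0776) and 2.27 (SE 0.78, adjusted p = 0.0510), so that none of the 4 passed the threshold in edgeR. Without 1-month 2 all 4 passed it at lower values, 1.42 and 1.46 for chi-miR-200b and 1.48 and 1.71 for miR-200-y, with adjusted p between 0.00143 and 0.00322. Without 1-month 1, chi-miR-200b also passed at 12 months (adjusted p = 0.0466) and at 24 months (0.0393), and chi-miR-200a (0.0386) and miR-200-y (0.0394) passed at 24 months.

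chi-miR-200c had 3520, 480 and 2036 CPM at 1 month, 9224, 6943 and 8129 CPM at 12 months, and 10803, 5881 and 8662 CPM at 24 months. It rose by 2.01 (SE 0.59, adjusted p = 0.0361) at 12 months and by 2.07 (SE 0.59, adjusted p = 0.0275) at 24 months. These calls depended on single libraries. The 12-month call held in 2 of the 9 fits that left out a library, those without 1-month 1 and without 1-month 2. In the other 7 its adjusted p was 0.0725 to 0.171. The 24-month call held in 3 of 9, failing without 1-month 3, 12-month 3, 12-month 5 and each of the 24-month libraries.

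chi-miR-429 had the smallest fold changes of the tested members. It had 434, 21.1 and 234 CPM at 1 month, 336, 398 and 417 CPM at 12 months, and 404, 367 and 692 CPM at 24 months. The library 1-month 1 was above all 3 of 12 months and above 2 of the 3 of 24 months. Its log2 fold change was 0.74 (95% interval -0.91 to 2.39, adjusted p = 0.473) at 12 months and 1.09 (95% interval -0.57 to 2.75, adjusted p = 0.300) at 24 months. The difference between its change and those of the other members was not tested in this fit. The longer miR-429-y had 99.97, 7.80 and 49.8 CPM at 1 month, 166, 138 and 152 CPM at 12 months, and 144.96, 160.2 and 187 CPM at 24 months. Unlike chi-miR-429 it did not overlap between 1 month and the later ages, and its changes of 1.53 (adjusted p = 0.110) and 1.64 (adjusted p = 0.0850) did not pass the threshold in edgeR. They passed it without 1-month 1 (adjusted p = 0.0396 and 0.0293) and without 1-month 2 (0.0486 and 0.0300).

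miR-200-z, the form shifted by 1 base, had 156, 8.51 and 96.3 CPM at 1 month, 423, 410.5 and 394 CPM at 12 months, and 488, 448 and 468 CPM at 24 months. Its 3 ages did not overlap. Its log2 fold change was 2.23 (SE 0.74, adjusted p = 0.0551) at 12 months, a value that passed without 1-month 1 (0.0344) or 1-month 2 (0.00190), and it rose by 2.43 (SE 0.74, adjusted p = 0.0361) at 24 months. The 24-month call was lost without 1-month 3, without 12-month 3 or 12-month 5, and without any 24-month library, with adjusted p of 0.0724 to 0.109.

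The 5p arms were less abundant than the leading 3p entries, and both tested ones were higher at the later ages. miR-200-x had 388, 37.3 and 278 CPM at 1 month, 1421, 1549 and 1833 CPM at 12 months, and 1825, 1740 and 1532 CPM at 24 months. It rose by 2.77 (SE 0.66, adjusted p = 0.0155) at 12 months and by 2.86 (SE 0.66, adjusted p = 0.0121) at 24 months. The 12-month call was lost without 12-month 3 (adjusted p = 0.0619) and when 12-month 5 was left out (adjusted p = 0.0811), and the 24-month call without 24-month 3 (adjusted p = 0.0525).

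miR-141-x had 46.3, 12.97 and 28.1 CPM at 1 month, 158, 219.6 and 210.2 CPM at 12 months, and 179.9, 238 and 198 CPM at 24 months. It rose by 2.75 (SE 0.47, adjusted p = 0.00403) at 12 months and by 2.82 (SE 0.47, adjusted p = 0.00323) at 24 months, and both calls held in all 9 fits that left out a library. The ratio of miR-141-x to chi-miR-141 and miR-141-y together stayed between 0.00559 and 0.00766 in the 9 libraries, with means of 0.00661, 0.00725 and 0.00687 at 1, 12 and 24 months. 1-month 2, where both terms were lowest, had the highest ratio, just above 12-month 4 at 0.00764. Its difference among ages had p = 0.589 in the exact permutation test. The log2 ratio was 0.14 higher at 12 months and 0.06 higher at 24 months than at 1 month, with SDs within an age of 0.12 to 0.23.

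**Figure D3:**
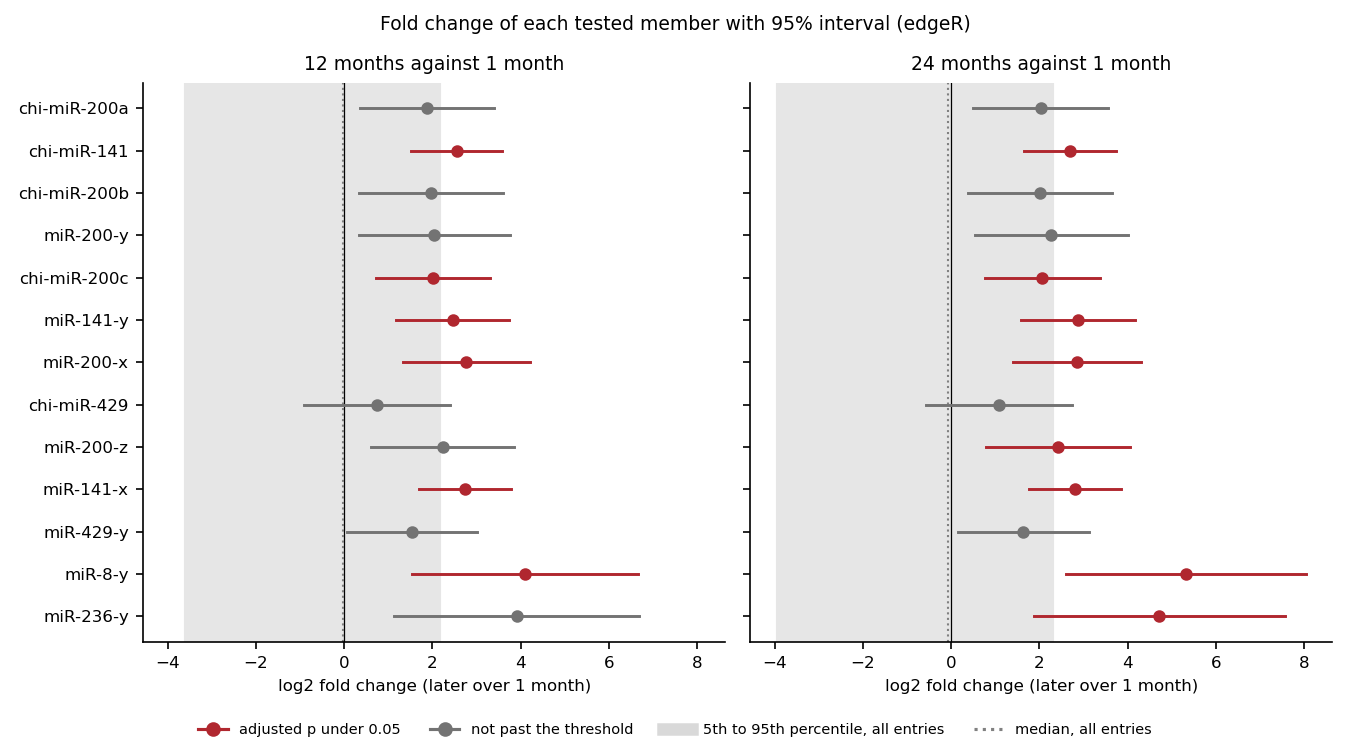
The log2 fold change (x axis) of each of the 13 tested members at 12 months and at 24 months, each over 1 month, with its 95% interval; red marks an adjusted p under 0.05, the grey band spans the middle of all 937 entries (5th to 95th percentile) and the dotted line is their median. All 13 points lie right of 0, between 0.74 and 4.10 at 12 months and between 1.09 and 5.33 at 24 months.

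For 24 against 12 months no member passed the threshold, and 0 of all 937 entries did (percent called 0), while 4.27% of entries had an unadjusted p under 0.05 in edgeR and none of these was a member. DESeq2 and limma voom also called 0 members. The log2 fold changes of the 13 members ran from 0.04 in chi-miR-200b to 1.23 in miR-8-y, with a median of 0.14, against -0.03 over all entries, and all had adjusted p = 0.998. The precision was limited, since the 95% interval for chi-miR-141 was -0.84 to 1.11. Every 24-month library lay above every 12-month library in 2 of 13 members, chi-miR-200a and miR-200-z, as it did in 6.08% of all entries. In the test for any difference among the ages, 5 of 13 members passed, where 20.5% of all entries did, and these were chi-miR-141, miR-141-y, miR-200-x, miR-141-x and miR-8-y.

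The order of levels was much the same at 12 and 24 months. At 12 months chi-miR-200a averaged 32806 ± 1449 CPM, chi-miR-141 25409 ± 1962 CPM, miR-200-y 15397 ± 2684 CPM, chi-miR-200b 13620 ± 1167 CPM and chi-miR-200c 8099 ± 1141 CPM (SD, n = 3). Libraries of neighbouring entries in that order overlapped only for miR-200-y and chi-miR-200b. miR-200-x at 1601 ± 211 CPM and miR-141-y at 1473 ± 747 CPM followed and overlapped each other, as did miR-200-z at 409 ± 14.4 CPM and chi-miR-429 at 384 ± 42.6 CPM. Next came miR-141-x at 196 ± 33.4 CPM and miR-429-y at 152 ± 13.6 CPM, which also overlapped. At 24 months the same 5 entries led in the same order, with chi-miR-200a at 36274 ± 224 CPM and chi-miR-141 at 27953 ± 3392 CPM. In the library 1-month 2 the order changed at the top, where chi-miR-141 at 1599 CPM exceeded chi-miR-200a at 1004 CPM.

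Ratios within a library need no scaling and show whether members kept their proportions. The summed AACACTG entries over the summed AATACTG entries gave 1.296, 2.47 and 1.52 in the 1-month libraries, 1.39, 1.61 and 1.79 at 12 months, and 1.48, 1.88 and 1.51 at 24 months. The ages overlapped and the exact permutation test gave p = 0.950. Summed miR-200c and miR-141 entries over summed miR-200a, miR-200b and miR-429 entries, grouped by their gene neighbours, gave 0.492, 1.63 and 0.476 at 1 month. The same ratio was 0.703, 0.805 and 0.743 at 12 months and 0.764, 0.820 and 0.692 at 24 months. miR-200 entries without a letter were left out of it. The exact permutation test gave p = 0.993 over all ages, with 1-month 2 above all later libraries and the other 2 of 1 month below them. Without 1-month 2 the log2 ratio was 0.63 higher at 12 months and 0.65 higher at 24 months than at 1 month, with an exact permutation p of 0.0286 and an adjusted p of 0.0667.

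Pairs of goat-named entries give the comparison between gene neighbours entry by entry. These pairs, and the other ratios in this paragraph, were chosen after the values were seen and are given without a test. chi-miR-141 as a percent of chi-miR-200a was 44.4%, 159% and 44.4% in the 1-month libraries, 71.5%, 83.5% and 77.4% in the 12-month ones and 75.8%, 86.5% and 68.8% in the 24-month ones. chi-miR-200c as a percent of chi-miR-200b was 56.9%, 154% and 52.7% in the 1-month libraries, 62.3%, 55.7% and 59.9% in the 12-month ones and 71.2%, 48.2% and 59.3% in the 24-month ones. In both pairs 1-month 2 stood apart, and was the library where chi-miR-141 and chi-miR-200c, from one pair of neighbouring genes, exceeded chi-miR-200a and chi-miR-200b.

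The pair chi-miR-429 and chi-miR-200b behaved otherwise, for 1-month 2 lay beside its companions. chi-miR-429 as a percent of chi-miR-200b was 7.01%, 6.75% and 6.06% in the 1-month libraries, 2.27%, 3.19% and 3.07% in the 12-month ones and 2.66%, 3.01% and 4.74% in the 24-month ones, so that no later library reached the 1-month values. With the longer forms added to both, it was 4.14%, 4.897% and 3.52% in the 1-month libraries, 1.62%, 1.78% and 2.19% in the 12-month ones and 1.70%, 1.69% and 2.72% in the 24-month ones. These genes are neighbours in the assembly. The 5p arm miR-200-x as a percent of the other members was likewise even at 1 month, at 0.994%, 0.9748% and 1.06%. It was 1.45%, 1.57% and 1.88% at 12 months and 1.67%, 1.59% and 1.45% at 24 months, again with no overlap. Set against chi-miR-200b and miR-200-y alone, however, miR-200-x was 3.02%, 6.33% and 3.45% in 1-month 1, 2 and 3, and the ages overlapped, with 4.60 to 7.05% at 12 months and 4.74 to 5.65% at 24 months. These ratios were chosen after their values were seen and carry no test.

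**Figure D4:**
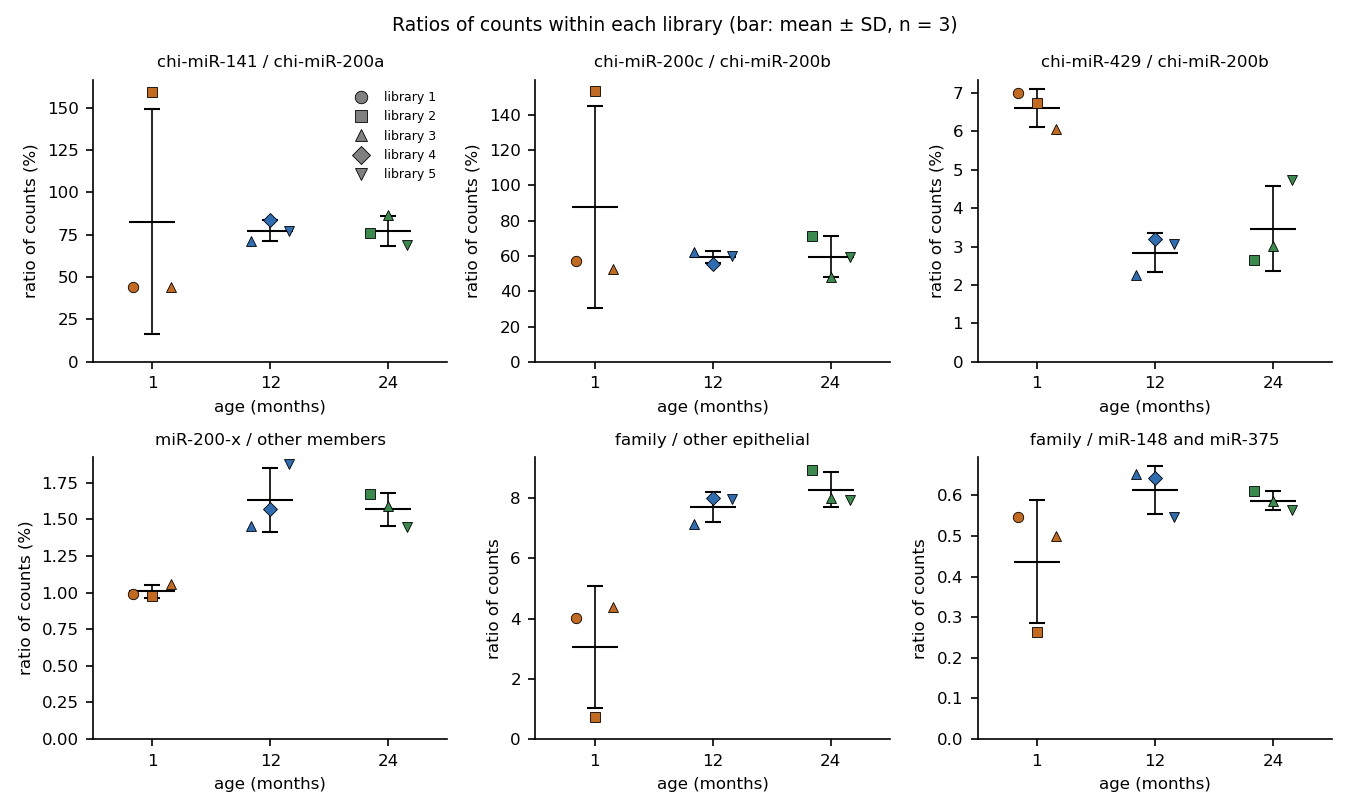
Ratios of counts within each library (y axis, percent in the first 4 panels and a plain ratio in the last 2) against age in months, with each library as a marker and the mean ± SD of 3 goats as line and bar. The library 1-month 2 is far from its companions for chi-miR-141 over chi-miR-200a (159% against 44.4% in both others) but beside them for chi-miR-429 over chi-miR-200b (6.75% against 7.01% and 6.06%).

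Set against other miRNAs of epithelium, the family was higher in every later library than at 1 month. Counts of the family over the summed miR-183, miR-96, miR-182, miR-203 and miR-205 entries, miRNAs known from sensory, skin and gland epithelium, gave 4.03, 0.718 and 4.40 in the 1-month libraries, 7.13, 8.003 and 7.97 in the 12-month ones and 8.94, 7.98 and 7.92 in the 24-month ones. No later library overlapped the 1-month ones. The log2 ratio was 1.72 higher at 12 months and 1.82 higher at 24 months than at 1 month, with p = 0.0179 in the exact permutation test over all ages and adjusted p = 0.0625. Without 1-month 2 the differences were 0.87 and 0.97, again with adjusted p = 0.0625 in the exact permutation test. Leaving out any single library of 12 or 24 months raised that adjusted p to between 0.208 and 0.3625. With goat-named entries alone on both sides of the ratio they were 0.87 and 0.88, with adjusted p = 0.125 in that test. Of the 11 tested entries of that list, 0 were called at 12 months, where 5.98% of all entries were higher. At 24 months 3 were higher in edgeR, where 8.75% of all entries were. These were chi-miR-182 (log2 fold change 1.66), chi-miR-96 (1.90) and miR-96-x (2.21). The miR-183, miR-96 and miR-182 entries changed by 0.92 to 1.98 at 12 months and by 1.01 to 2.21 at 24 months. The miR-203 and miR-205 entries did not share this rise. miR-203-y, miR-205-x and miR-205-y changed by -0.47, 0.39 and -0.21 at 12 months, and by -0.14, 0.36 and -0.04 at 24 months.

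Against the secretory gland miRNAs miR-148 and miR-375 the difference was small. The family over their sum was 0.546, 0.265 and 0.499 in the 1-month libraries, 0.654, 0.643 and 0.546 in the 12-month ones and 0.610, 0.587 and 0.565 in the 24-month ones. The log2 ratio was 0.56 and 0.50 higher at 12 and 24 months than at 1 month, with an exact permutation p of 0.0429 and an adjusted p of 0.1. Without 1-month 2 these differences were 0.23 and 0.17, and with goat-named entries alone they were 0.16 and 0.14 (exact permutation p = 0.207, adjusted p = 0.483). Of the 7 tested miR-148 and miR-375 entries, 3 were higher at 12 months and 4 at 24 months in edgeR. Over all 937 entries 5.98% and 8.75% were higher. The log2 fold changes of chi-miR-148b-3p and chi-miR-148b-5p were -0.32 and -0.01 at 12 months, and 0.27 and 0.01 at 24 months. Those of the other entries of this list ran from 1.46 to 2.68 and from 1.80 to 3.38. Of the 16 tested leukocyte entries, 12 were lower at 12 months and 14 at 24 months, where 13.2% and 17.5% of all entries were.

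Likeness to the summed family was measured as the root mean square difference of centred log2 CPM over the 9 libraries, among other entries with a mean of at least 100 CPM. The nearest was chi-miR-148a-3p at 0.14, followed by chi-miR-148a-5p at 0.22, chi-miR-30a-5p at 0.28, miR-31-x at 0.36 and chi-miR-182 at 0.43. All of these were lowest in 1-month 2, as was the summed family, at 39453, 3863 and 26543 CPM in 1-month 1, 2 and 3. No ranking was made without that library. By the same measure chi-miR-200a, which is the most abundant member and therefore part of what it is set against, stood at 0.17 and chi-miR-429 at 0.59. chi-miR-148a-3p had 60339, 4430 and 42094 CPM at 1 month, 126300, 130822 and 147662 CPM at 12 months, and 145715, 147159 and 152249 CPM at 24 months.

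The 3 entries with invertebrate numbers were rare, and miR-8-y and miR-236-y followed another pattern. miR-8-y had 29, 57 and 24 counts in the 1-month libraries, 93, 1137 and 159 counts at 12 months, and 118, 1483 and 1441 counts at 24 months. Scaled, these were 2.37, 4.53 and 1.69 CPM at 1 month, 12.0, 121 and 14.3 CPM at 12 months, and 11.4, 169 and 166 CPM at 24 months. The libraries 12-month 4, 24-month 3 and 24-month 5 were about an order of magnitude above the other 3 later ones. miR-8-y rose by 4.10 (SE 1.16, adjusted p = 0.0329) at 12 months and by 5.33 (SE 1.22, adjusted p = 0.0124) at 24 months in edgeR. Without those 3 libraries the log2 fold changes were 2.01 and 1.84, resting on 12-month 3 and 5 and on 24-month 2 alone. The 12-month call was lost without any one of the 1-month libraries, with adjusted p of 0.0864 to 0.0982, and without 12-month 4 alone at 0.123.

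miR-236-y had 12, 2 and 0 counts at 1 month, 17 and 19 counts in 12-month 3 and 5, and 23 counts in 24-month 2. In 12-month 4, 24-month 3 and 24-month 5, the same 3 libraries that were highest in miR-8-y, it had 13.4, 11.4 and 16.8 CPM, against at most 2.22 CPM in the other 6. Its log2 fold change was 3.91 (SE 1.26, adjusted p = 0.0514) at 12 months, past the threshold only without 1-month 1 (0.0247) among the fits that left out a library, and it rose by 4.72 (SE 1.29, adjusted p = 0.0245) at 24 months, a call lost without 1-month 2, 24-month 3 or 24-month 5 (adjusted p of 0.0722 to 0.0848). miR-8-x held at most 19 counts in a library, 2 counts in the 1-month libraries together, and was not tested in the fit of all libraries.

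miR-8-y was set against chi-miR-141, the goat-named entry nearest to it in sequence, and miR-236-y against miR-200-y, the near-identical entry of the same length. These ratios were chosen after the values were seen and carry no test. miR-8-y per 1000 counts of chi-miR-141 was 0.359, 2.84 and 0.355 in the 1-month libraries, 0.517, 4.59 and 0.536 in the 12-month ones and 0.415, 5.34 and 6.67 in the 24-month ones. miR-236-y per 1000 counts of miR-200-y was 0.147, 0.574 and 0 in the 1-month libraries, 0.136, 0.761 and 0.137 in the 12-month ones and 0.129, 0.596 and 0.949 in the 24-month ones. In both, 1-month 2, 12-month 4, 24-month 3 and 24-month 5 were the 4 highest libraries, though the value of miR-236-y in 1-month 2 rests on 2 counts.

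The longer forms varied among some of the same libraries. miR-141-y as a percent of chi-miR-141 was 6.70%, 6.29% and 5.46% in the 1-month libraries, 4.28%, 8.83% and 4.10% in the 12-month ones and 4.53%, 8.49% and 8.10% in the 24-month ones. The ages overlapped, with an exact permutation p of 0.657, and the libraries 12-month 4, 24-month 3 and 24-month 5 were highest. The ratio of miR-200-y to chi-miR-200b, chosen after the values were seen and not tested, was 1.08, 0.888 and 1.08 in the 1-month libraries, 1.09, 1.42 and 0.915 in the 12-month ones and 1.13, 1.56 and 1.21 in the 24-month ones. It was highest in those same 3 libraries, and 1-month 2 was lowest. How the authors assigned reads that match several of these near-identical entries is not given in the sources used here, so the split between them is uncertain.

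**Figure D5:**
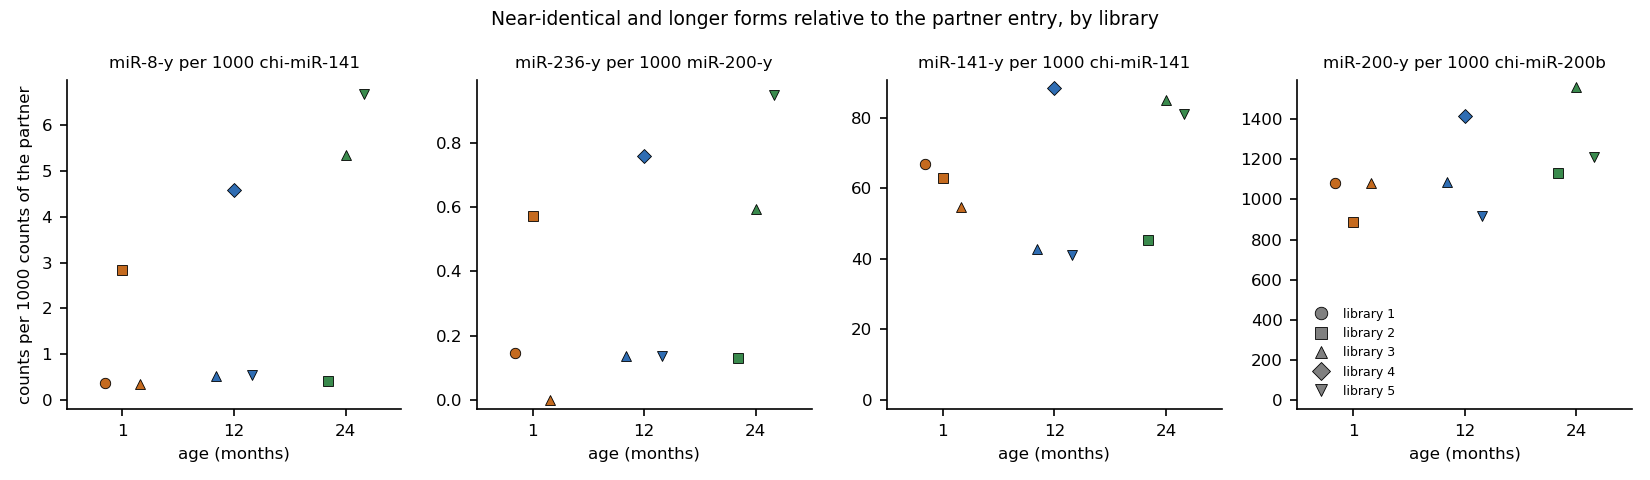
Counts of 4 entries per 1000 counts of a near-identical or shorter partner entry, named above each panel (y axis), against age in months, each marker a library. The libraries 12-month 4, 24-month 3 and 24-month 5 are the 3 highest in every panel. In the panel of miR-236-y, 1-month 2 (0.574, from 2 counts) lies just under 24-month 3 (0.596).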

How the data were processed

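Small RNA from 9 submandibular glands was sequenced as miRNA libraries on total RNA extracted with TRIzol, per the labels' protocols. The values are raw read counts per miRNA entry, deposited by the authors with each entry's sequence, per the file headers. FastQC and Bowtie are named in the submitters' processing notes. Not given in the sources used here are the genome build, the miRNA database, the mismatch setting and the treatment of reads that match several entries. Members and marker lists were chosen with earlier results of these data known.

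Counts were fitted in R 4.3.3 with edgeR 4.0.16 (TMM factors, filterByExpr with minimum count 10 and minimum total 15, robust quasi-likelihood F test, all 9 libraries in a single fit with age as the only term), leaving 937 entries. P-values were Benjamini-Hochberg adjusted over all of these, with a threshold of 0.05. Standard errors are the log2 fold change divided by the square root of F. Summed values were compared by exact permutation of libraries, adjusted over 7 values. Shares use unscaled totals, with Wilson 95% intervals. Every member is reported, and likeness names the 5 nearest entries of at least 100 CPM (log2 CPM with prior count 2). Other marker lists were mesenchymal, endothelial, muscle, red cell and neural. Alternatives were DESeq2 1.42.0, limma 3.58.1 (voom), other scalings and filters, and each library left out. The code was tested on simulated data.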

Additional observations from a re-analysis of the deposited data

How the results depend on the processing

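With 3 goats an age, calls near the threshold turn on single libraries, and a pair of ages cannot reach an exact p under 0.1. No log2 fold change of the 13 tested members against 1 month reversed under any alternative run. The main counts of members called were 6 at 12 months and 8 at 24 months, all higher, and 0 for 24 against 12 months. For any age the count was 5, from a test without direction. At 12 months they became 10 with no filter, 10 with DESeq2, 10 with limma voom and 3 with only the 2 ages compared. For any age they became 10 with no filter and 10 with DESeq2. Summing entries that share their first 18 bases gave 4 at 12 months, 6 at 24 months and 4 for any age. With goat-named entries alone, of which 5 were tested, 4 were called at 24 months and 3 for any age. Leaving out single libraries gave 3 to 10 at 12 months, 4 to 12 at 24 months, 2 to 9 for any age and 0 for 24 against 12 months. Shares over all entries are not given for these settings, apart from the fit without 1-month 2. From the counts given here alone, a change in the member counts cannot be told from a change over all entries. A further fit, chosen after seeing the data, dropped 12-month 4, 24-month 3 and 24-month 5 together. It rests on 12-month 3 and 5 and on 24-month 2 alone, too few libraries for its calls to be counted. Among the 13 tested members, chi-miR-429 had its smallest log2 fold changes over 1 month, 0.40 (12 months) and 0.53 (24 months). The largest were those of miR-200-x, 2.48 and 2.68. DESeq2 gave no adjusted p for miR-8-y.

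With the number in the labels as a replicate block, 0 members were called at 12 months, 8 at 24 months and 1 for any age; same-numbered libraries are separate goats whose deviations correlated at -0.1979 to 0.1499, so the numbers do not pair them.

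The family share with TMM-scaled totals differed from 1 month by 7.63 and 8.65 points (adjusted exact permutation p = 0.0250). Goat-named entries alone gave 5.555 and 5.885 points (adjusted exact permutation p = 0.125). Leaving out single libraries gave 5.73 to 7.87 and 6.28 to 8.42 points, with adjusted exact permutation p of 0.05 to 0.15. The log2 ratio of seed groups, -0.09 and -0.07 in 12 and 24 months minus 1 month, became 0.0341 and 0.13 in goat-named entries, and ran over -0.29 to 0.18 and -0.26 to 0.20 without single libraries. That of gene neighbours, 0.05 and 0.06, became -0.026 and -0.0383 with miR-200-y and miR-200-z added (chosen after seeing the data), and ran over -0.26 to 0.63 and -0.24 to 0.65. The miR-141 arm ratio ran over 0.03 to 0.25 and -0.0495 to 0.18, and miR-141-y over chi-miR-141 over -0.55 to 0.006 and -0.0157 to 0.44. In goat-named entries the family over other epithelial miRNAs differed by 0.87 (12 minus 1 month), 0.88 (24 minus 1) and 0.004 (24 minus 12), against 1.72, 1.82 and 0.10 with all entries, and the family over gland miRNAs by 0.16 and 0.14 from 1 month, against 0.56 and 0.50. These causes were not tested.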

Other observations

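Other marker lists, given as shares of library counts, describe the glands the family was measured in. Mesenchymal miRNAs (miR-143, miR-145, miR-199 and miR-214) took 10.7%, 1.66% and 13.6% of counts in 1-month 1, 2 and 3, 6.91 to 9.04% at 12 months and 6.51 to 6.82% at 24 months. Endothelial miR-126 took 1.01%, 0.441% and 1.45% in the 1-month libraries, and 0.693 to 0.939% in the later ones. Neural miRNAs (miR-9, miR-124, miR-128, miR-129, miR-137 and miR-219) took 0.723%, 3.48% and 0.419% at 1 month and at most 0.0564% in each later library. They were highest in 1-month 2, as were the leukocyte and miR-181 lists, and which cells they came from was not tested. Red cell miRNAs lay between 0.0735% and 0.403% in all 9 libraries. Muscle miRNAs stayed at or under 0.0606% except in 12-month 4, where they reached 0.247%.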
